A study of Mus musculus with 6 samples.

Results

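The 8 genes Smpx, Treh, Svs1, Psca, Lce6a, Klk1b26, Klk1b27 and Ido1 were chosen by their cauda values, which lie above those of the other regions of the mouse epididymis, and they were found by symbol as 8 of the 37578 genes of the deposited expression table. The cauda is the end of the duct where sperm are stored. Because cauda values chose them, their differences from the other regions are given below as description, with no test. The libraries hold RNA of clear cells, the proton-secreting epithelial cells of the epididymis, taken from its first segment (caput), its narrow middle (corpus) or the cauda. Each region has 2 libraries. All 3 groups were untreated transgenic mice aged 12 weeks that carry EGFP under the promoter of Atp6v1b1, a gene for a subunit of the V-ATPase proton pump, and they differ only in the region taken. EGFP-positive cells were sorted in 2 rounds, and 12 epididymides were pooled for each library. The sort therefore takes whatever cells the promoter marks. Nothing in the labels states that a region's pools came from separate sets of mice, and the p-values then reflect library-to-library spread alone.

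The epididymal duct changes its secretions and surface proteins from segment to segment, and sperm pass through these segments in order as they mature. The 8 genes belong to different protein families. Svs1, Klk1b26 and Klk1b27 encode secreted proteins, Psca and Treh encode proteins held on the cell surface by a lipid anchor, Ido1 encodes an intracellular enzyme that breaks down tryptophan, and Lce6a and Smpx encode structural proteins best known from skin and striated muscle. Klk1b26 and Klk1b27 are tissue kallikreins, serine proteases encoded by a tight cluster of similar genes, so their sequences decide how well reads can be told apart.

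The coding sequences of Klk1b26 and Klk1b27 (GENCODE, GRCm38) were identical at 668 of 792 aligned positions, or 84.3%. Other cluster members were closer to each: Klk1b16 matched Klk1b26 at 92.7% and Klk1b24 matched Klk1b27 at 93.5%. The stretch of 60 coding bases with most differences between the pair is shown because it is where a read separates the 2 genes best. Capitals mark the 19 bases that differ, and positions count from the first coding base (669 to 728 in Klk1b26, 675 to 734 in Klk1b27).
Klk1b26: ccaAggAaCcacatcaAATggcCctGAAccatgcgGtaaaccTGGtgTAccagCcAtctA
Klk1b27: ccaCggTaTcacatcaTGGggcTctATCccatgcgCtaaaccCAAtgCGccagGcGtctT
In the stretch with fewest differences, positions 431 to 490 of Klk1b26 and 437 to 496 of Klk1b27, 1 base of 60 differed, shown in capitals.
Klk1b26: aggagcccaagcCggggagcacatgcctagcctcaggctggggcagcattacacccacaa
Klk1b27: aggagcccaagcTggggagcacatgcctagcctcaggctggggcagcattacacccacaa
Of all windows of 50 bases in the transcripts, 15.03% of those of Klk1b26 and 14.29% of those of Klk1b27 also occurred in another gene, most often Klk1b8 and Klk1b24. The values were 2.02% for Svs1, mostly with an antisense transcript, and 1.45% for Treh, while Smpx, Psca, Lce6a and Ido1 had no shared window. At 100 bases the shares fell to 0.47% for Klk1b26 and 1.77% for Klk1b27, with none in the other 6 genes. The read length is not given in the sources used here, and reads without a unique position were not counted, so the Klk1b values are uncertain to that extent.

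RefSeq promoters (GRCm38.p6) were matched for 6 of the 8 genes, all but Psca and Ido1. Those of Klk1b26 and Klk1b27 were identical at 79.2% of aligned positions over 250 bases before the start, against 38.4% to 43.3% for the other 14 pairs. The last 120 bases before each start are shown for this pair, with TTTAAA in capitals, a TATA-like run whose first base lies 26 bases before the start in Klk1b26 (chr7:44012558-44012677, plus strand) and 17 bases before it in Klk1b27 (chr7:44052170-44052289, plus strand).
Klk1b26: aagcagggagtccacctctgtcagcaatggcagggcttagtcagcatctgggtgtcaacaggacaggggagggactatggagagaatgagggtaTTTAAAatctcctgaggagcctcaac
Klk1b27: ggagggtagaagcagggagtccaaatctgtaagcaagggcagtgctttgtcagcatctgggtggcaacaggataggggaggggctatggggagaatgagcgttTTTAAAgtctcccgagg
TTTAAA occurred in promoters of 2 of the 6 genes and in 12.1% of 32851 RefSeq promoters of the same length. The GATA-type letters AGATAA, on either strand, occurred in 2 of 6, Smpx and Lce6a, and in 10% of all. Those 2 promoters are shown over their last 120 bases, with AGATAA in capitals: Smpx at chrX:157698853-157698972, plus strand, and Lce6a at chr3:92621661-92621780, minus strand.
Smpx: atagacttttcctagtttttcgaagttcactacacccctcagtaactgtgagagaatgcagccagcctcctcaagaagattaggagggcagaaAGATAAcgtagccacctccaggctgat
Lce6a: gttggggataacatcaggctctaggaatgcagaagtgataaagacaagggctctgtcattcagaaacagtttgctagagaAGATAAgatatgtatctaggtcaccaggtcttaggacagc
TGTTCT, a half-site of the androgen receptor motif, was in 2 of 6 (Svs1 and Lce6a) against 16.1% of all promoters, searched on both strands. TATAAA was in 1 of 6 (Lce6a) against 12.4%, and the forkhead core TGTTTAC in 0 of 6 against 3.2%. A gene was counted where any of its promoters held the letters, while the shares of all are per promoter, which are unlike units. These matches describe letters only.

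Levels are given as deposited RPKM, read counts relative to gene length and to a scaled library size. Each library held 18887128 to 24700717 reads assigned to genes. Clear cell markers were present in every region at levels that differed widely. Their summed RPKM over 17 genes was 3761 and 3597 in caput, then 1138 and 1337 in corpus, then 406 and 518 in cauda. Atp6v1b1 itself, whose promoter drives the sorted EGFP, stood at 178 and 161 RPKM in the caput libraries, 27.5 and 33.7 in those of corpus, and 8.56 and 12.5 in those of cauda. The summed RPKM of 19 principal cell markers was 7858 and 9158 in caput, then 61610 and 70270 in corpus, then 127600 and 120000 in cauda, a sum led by a few abundant genes such as Cd52, at 50730 and 44410 in cauda. Gene by gene, 9 of the 19 were called higher and 10 lower in cauda than caput, with a median log2 fold change of -0.62. Over all tested genes, 33% were called higher and 33.9% lower, with a median of -0.04. A fall in the number of cells of a type and a fall in RNA per cell cannot be told apart in these bulk libraries. The part of other cell types in the results below was not tested.

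**Figure D1:**
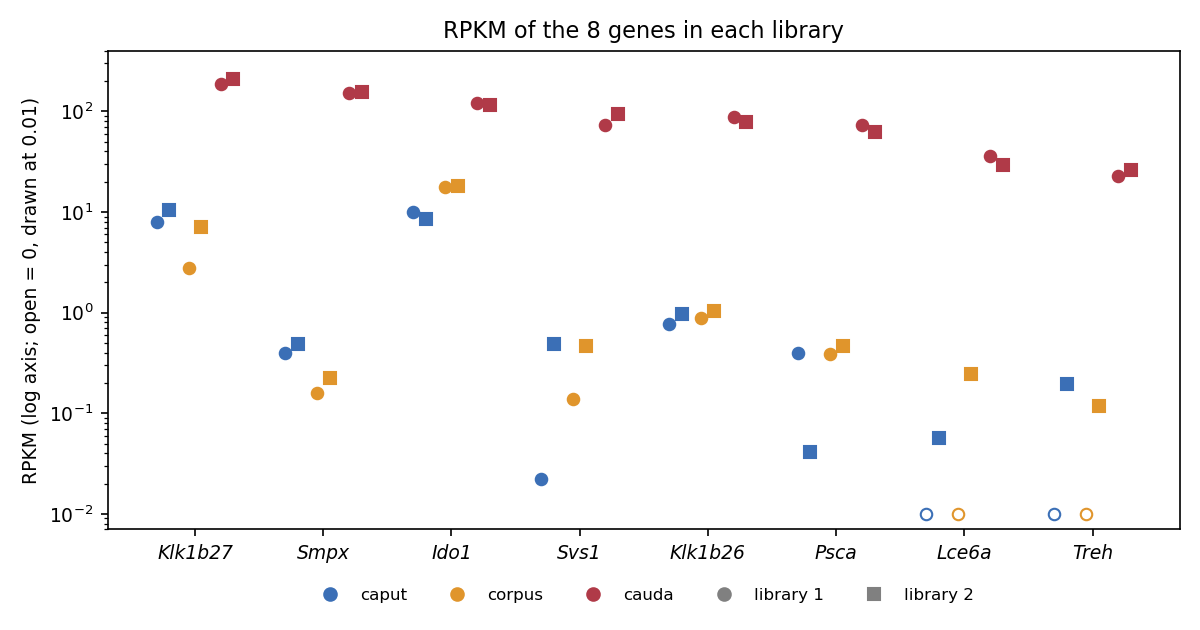
RPKM (log axis) of the 8 genes in each of the 6 libraries; circles are library 1 and squares library 2 of a region, and open points are values of 0 drawn at 0.01. Every cauda point lies above every caput and corpus point of the same gene, from 22.9 RPKM for Treh to 210 for Klk1b27, and the genes differ in how far the other regions lie below.

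Among the secreted proteins, Svs1, a seminal vesicle secretory protein related to copper amine oxidases (ENSMUSG00000039215), was at 73.3 and 95.1 RPKM in the cauda libraries. It was at 0.022 and 0.489 in caput (2 and 39 reads) and at 0.14 and 0.468 in corpus (7 and 26 reads). Both cauda values were over 149 times the highest other value, while library 2 exceeded library 1 in each of the other regions. The log2 fold change was 8.49 ± 0.76 (SE, n = 2 and 2) against caput and 8.07 ± 0.77 against corpus. Those folds depend on single libraries: without caput library 1 the value against caput was 7.47, and against corpus it was 7.48 without corpus library 1 and 9.22 without corpus library 2. An antisense gene overlaps Svs1 in the GRCm38 annotation and the counts ignore strand, so reads from both cannot be told apart.

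Klk1b27 (ENSMUSG00000063177) had the highest cauda level of the 8, at 188 and 210 RPKM. It was at 7.92 and 10.4 in caput and at 2.78 and 7.05 in corpus (44 and 124 reads), so it was also read well above 0 outside the cauda. The groups did not overlap, and corpus library 1 was the lowest. The log2 fold change was 4.51 ± 0.35 against caput and 5.32 ± 0.39 against corpus, the latter 6.17 without corpus library 2. Klk1b26 (ENSMUSG00000053719) was at 88.3 and 78.1 RPKM in cauda, 0.772 and 0.962 in caput, and 0.892 and 1.03 in corpus. Its values outside the cauda were even, with caput and corpus overlapping, and its log2 fold change was 6.65 ± 0.17 against caput and 6.42 ± 0.18 against corpus.

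The balance of the 2 kallikreins differed between the regions as a description. Their lengths are close, 868 and 877 bases, so shares of reads can be set side by side. Klk1b27 took 91.2% (95% exact interval 87.0% to 94.4%) and 91.6% (87.7% to 94.5%) of the pair's reads in caput, over 250 and 285 reads. It took 75.9% (62.8% to 86.1%) and 87.3% (80.7% to 92.3%) in corpus, and 68.3% (66.9% to 69.7%) and 73.1% (71.8% to 74.4%) in cauda. The intervals cover counting error only. The cauda libraries differed from each other by more than their intervals, and both lay below both caput libraries, with the corpus libraries between caput and cauda.

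At the cell surface, Psca, a small lipid-anchored protein of the Ly6/uPAR family first known from prostate (ENSMUSG00000022598), was at 72.6 and 61.9 RPKM in cauda. It was at 0.394 and 0.0409 in caput, which are 11 reads and 1 read, and at 0.39 and 0.469 in corpus. Caput library 2 was the lowest, and the other 3 libraries outside the cauda were alike. The log2 fold change was 8.23 ± 0.36 against caput, 7.47 without caput library 2, and 7.27 ± 0.36 against corpus. Treh encodes trehalase, the enzyme that splits the sugar trehalose into glucose (ENSMUSG00000032098), and was at 22.9 and 25.8 RPKM in cauda. It had 0 reads in library 1 of caput and of corpus, against 12 reads (0.195 RPKM) in caput library 2 and 5 reads (0.117 RPKM) in corpus library 2. The log2 fold change was 8.08 ± 0.68 against caput and 8.58 ± 0.78 against corpus, and 6.99 and 7.67 without caput library 1 and corpus library 1, respectively. Phldb1 overlaps Treh on the opposite strand and was at 0.261 RPKM or less in every library.

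Ido1, indoleamine 2,3-dioxygenase, opens the kynurenine route of tryptophan breakdown (ENSMUSG00000031551). It was at 121 and 116 RPKM in cauda, 9.91 and 8.59 in caput, and 17.6 and 18.1 in corpus. The 3 regions were fully separated, in the order caput, corpus, cauda. The log2 fold change was 3.74 ± 0.09 against caput and 2.74 ± 0.09 against corpus, the smallest of the 8 in both, with the smallest errors.

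Of the structural proteins, Smpx, a small X-linked muscle protein of the costamere, the site where contractile fibres attach to the membrane (ENSMUSG00000041476), was at 151 and 157 RPKM in cauda. It was at 0.398 and 0.483 in caput and at 0.158 and 0.224 in corpus, so the lowest cauda value was 313 times the highest other value. The caput and corpus values did not overlap either. The log2 fold change was 8.52 ± 0.13 against caput and 9.63 ± 0.15 against corpus. Lce6a, a late cornified envelope protein of the outer skin (ENSMUSG00000086848), was at 36 and 29.4 RPKM in cauda. It had 0 reads in library 1 of caput and of corpus, and 2 and 6 reads in library 2 (0.0567 and 0.244 RPKM). Against caput the scaled ratio of reads was 1290 (95% interval 356 to 10700, counting error only), and against corpus the log2 fold change was 7.95 ± 0.51, or 7.03 without corpus library 1.

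**Figure D2:**
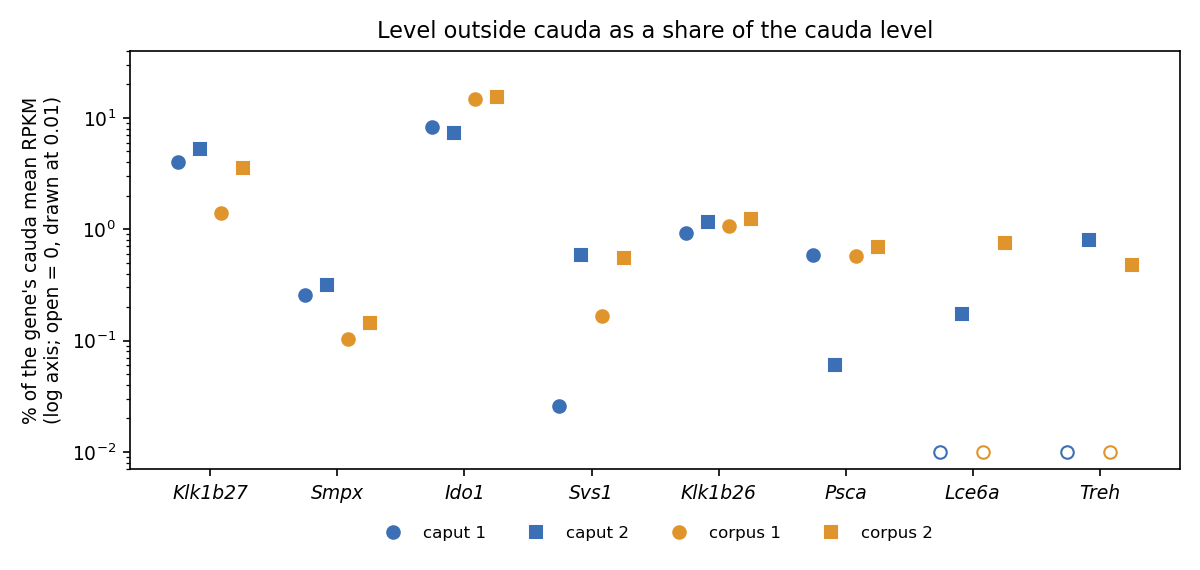
Level of each gene in the 4 caput and corpus libraries as a percentage of its own cauda mean (log axis; open points are 0, drawn at 0.01). Ido1 lies highest at 7.24% to 15.2%, Klk1b27 lies at 1.39% to 5.2%, Klk1b26 near 1%, and the other 5 genes below 0.81%.

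The 8 genes differed most in what was left outside the cauda. The cauda held 99.59% of the summed region means for Smpx, 99.54% for Lce6a, 99.36% for Treh, 99.34% for Svs1 and 99.05% for Psca. It held 97.85% for Klk1b26, 93.41% for Klk1b27 and 81.42% for Ido1. Of 4472 genes with a mean cauda level of at least 10 RPKM, 45 (1.01%) had a share of at least 95% and 97 (2.17%) a share of at least 80%. Smpx ranked 3, Lce6a 5, Treh 8, Svs1 9, Psca 14, Klk1b26 25, Klk1b27 52 and Ido1 90 by this share. The rule used these values, so the ranks only describe the choice.

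The residual levels were uneven between libraries. Treh, Svs1 and Lce6a, and by less Smpx, Klk1b26 and Klk1b27, were higher in library 2 than in library 1 in caput and corpus alike. Treh and Lce6a had 0 reads in library 1 of both regions. The share of all genes with this order was not computed, and libraries with the same number deviated together to a small degree over all tested genes. The order is therefore not read as a trait of these genes. Psca and Ido1 were higher in library 2 of corpus but in library 1 of caput. The summed RPKM of 10 sperm markers was higher in library 2, at 333 against 44.6 in caput, 58.5 against 2.14 in corpus, and 93.9 against 33.5 in cauda. One of these 10, Smcp, a sperm mitochondrial sheath gene, lies next to Lce6a in GRCm38 gene order. Smcp was at 40.3 against 3.34, 54.2 against 0, and 86.1 against 24.6. It made up most of the sum in corpus library 2 and in both cauda libraries. Other markers of the list were split between the cauda libraries. Prm2 was at 0.697 RPKM in library 2 against 2.69 in library 1, and Spata18 at 0.46 against 1.96. Odf1 was at 3.11 against 0.674. The part of sperm RNA in these low levels was not tested.

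Between corpus and caput, which the choice of genes did not use, Ido1 rose and Smpx fell from caput to corpus. Both directions were tested with edgeR's quasi-likelihood test and Benjamini-Hochberg adjustment over 15816 genes. Ido1 was 1.01 ± 0.09 (log2, SE) higher in corpus, with an adjusted p of 9.529e-06 and both corpus libraries above both caput libraries. The size of the Ido1 rise depended on scaling, and it was 0.42 under library totals (adjusted p = 0.002186). Smpx was lower in corpus by a log2 fold change of -1.11 ± 0.26 (adjusted p = 0.004277), at 18 corpus reads against 66 caput reads. That call was lost without corpus library 1 (-0.89, adjusted p = 0.07471) and in a fit without the cauda libraries (-1.12, adjusted p = 0.08555).

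Klk1b27, Klk1b26 and Svs1 did not pass this test. Klk1b27 gave -0.81 ± 0.41 (adjusted p = 0.1432), and it was called at -1.65 without corpus library 2 (adjusted p = 0.001722), at -0.83 with the replicate number as a block (adjusted p = 0.03752) and at -1.41 under library totals (adjusted p = 0.02162). Klk1b26 gave 0.22 ± 0.27 (adjusted p = 0.5492) and Svs1 0.42 ± 1.37 (adjusted p = 0.8094). Of these 5 genes 2 were called, where 65% of all tested genes were called in this comparison (31.8% higher in corpus and 33.2% higher in caput). Treh, Psca and Lce6a reached the test only through their cauda reads and would not pass the low-count filter on caput and corpus libraries alone, so nothing is read from their outcome. Over both libraries they had 12, 12 and 2 reads in caput and 5, 14 and 6 reads in corpus.

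**Figure D3:**
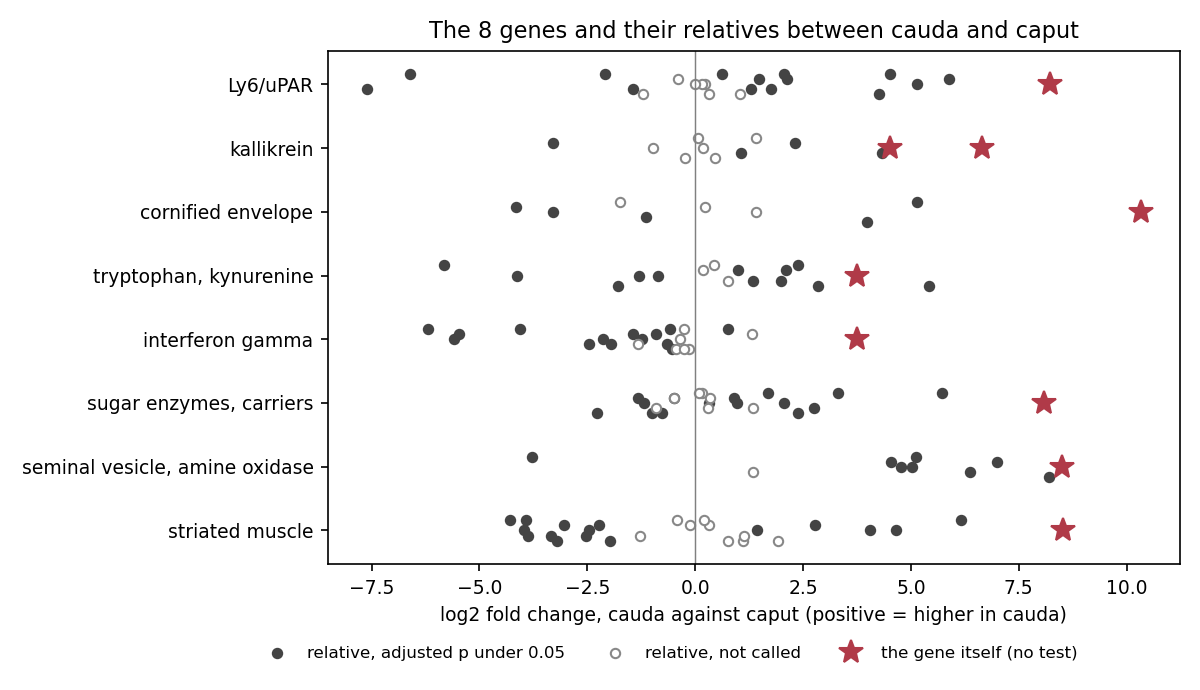
Log2 fold change of cauda against caput for each tested gene of the lists (dots, filled where called) and for the 8 genes (stars, no test). Positive values are higher in cauda. For genes with up to 3 reads in a region, the log2 of the scaled read ratio or its bound is drawn. Most seminal vesicle and amine oxidase genes lie to the right and most interferon gamma genes to the left, while the other lists spread to both sides of 0.

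Relatives, pathway partners or genes of a shared tissue were read from lists that leave the 8 genes out. Levels of these listed genes were tested in all comparisons. Over all tested genes, 66.9% were called between cauda and caput (33% higher in cauda, 33.9% higher in caput, median log2 fold change -0.04), and 35.4% between cauda and corpus (18% and 17.3%, median 0). The counts below are read against these shares.

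Seminal vesicle and amine oxidase genes were listed with Svs1 by shared tissue or by family. Of 9 tested, 7 were called higher in cauda than caput and 1 lower. Their median log2 fold change was 6.76, or 5.03 with genes at 0 reads set to their bound. Against corpus, 6 were higher and 1 lower, with a median of 3.95. Sva, a seminal vesicle antigen, was at 7.25 and 6.8 RPKM in cauda against 0.0471 and 0 in caput, a read ratio of 293 (95% interval 51.8 to 11600), and rose 3.95 ± 0.5 over corpus. Svs5, a seminal vesicle secretory protein, was at 5.87 and 6.09 RPKM in cauda and had no read in caput, at least 82.6-fold higher by a floor of 3 reads over the group. Svs2, a major clotting protein of the mouse copulatory plug, was at 1.99 and 2.03 RPKM in cauda against at most 0.0351 elsewhere, with a read ratio of 128 to caput (34.9 to 1070) and at least 50.8-fold over corpus. The higher genes named here, Sva, Svs5 and Svs2, were listed for the tissue. The gene called lower was Abp1, the diamine oxidase gene and the only amine oxidase named from this list. It fell by 3.79 ± 0.21 against caput and by 1.55 ± 0.22 against corpus. In cauda Svs1 was at 84.2 ± 15.4 RPKM (SD, n = 2), above each of the genes named here.

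Kallikrein relatives were called higher in cauda than caput for 3 of 10 and lower for 1 (median 0.32), which became 2 higher and 4 lower under library totals. Against corpus 5 were higher and none lower (median 1.35). Klk1b1 was at 4.05 and 4.98 RPKM in cauda against 0.141 and 0.323 in caput, a log2 fold change of 4.33 ± 0.68 (adjusted p = 0.000374). Klk1b5 rose 2.32 ± 0.17 over caput but was at 15.8 and 18.7 RPKM in cauda against 18.9 and 19.6 in corpus. Klk1b3 rose 1.07 ± 0.34 over caput and 3.07 ± 0.39 over corpus, to 5.83 and 8.08 RPKM. Klk1b11 rose 2.19 ± 0.38 over corpus and did not pass against caput at 0.06 ± 0.33 (adjusted p = 0.8823), a value that turned to -0.8 under library totals. Klk1b9 was called lower in cauda than caput, at -3.3 ± 0.62, and was at 0.794 and 0.186 RPKM against 3.98 and 6.11. The closest relatives by sequence were far lower in cauda than the pair itself, with Klk1b16 at a mean of 0.161 RPKM and Klk1b24 at 3.12.

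Ly6/uPAR genes, the family of Psca, were called higher in cauda than caput for 10 of 21 and lower for 4 (median 0.62), or 7 and 7 under library totals. Against corpus 9 were higher and 4 lower (median 0.78). Ly6c1, a surface protein of the same family, was at 105 and 87.3 RPKM in cauda against 3.34 to 5.2 elsewhere, with log2 fold changes of 4.52 ± 0.19 and 4.83 ± 0.2. Ly6f was far more abundant and was high in corpus as well: 118 and 135 RPKM in caput, then 1746 and 1882 in corpus, then 4538 and 3902 in cauda. Pate2 and Pate4, secreted members expressed in the reproductive tract, were highest in corpus, with Pate2 at 252 and 289 RPKM there against 67.7 and 89.2 in cauda.

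Sugar-splitting enzymes and hexose carriers, the partners of Treh, were called higher in cauda than caput for 9 of 22 and lower for 6 (median 0.3), or 5 and 12 under library totals. Against corpus 5 were higher and 5 lower (median 0.02), or 3 and 7 under library totals. Hexokinases act on the glucose that trehalase yields. Hk2 rose 1.68 ± 0.08 over caput, to 20.5 and 19.5 RPKM, and Hk1 fell by 2.27 ± 0.11, to 2.38 and 2.02. Slc2a5, the fructose carrier, was at 28.5 and 29 RPKM in corpus against 4.59 and 4.31 in cauda. Slc2a1, the general glucose carrier, was at 22 and 23.2 RPKM in cauda, above corpus by 0.58 ± 0.08 and below caput by a log2 fold change of -0.5 ± 0.08.

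Genes of tryptophan and kynurenine handling, the partners of Ido1, were called higher in cauda than caput for 7 of 15 and lower for 5 (median 0.77), or 6 and 6 under library totals. Against corpus 5 were higher and 4 lower (median 0.21), or 4 and 4 under library totals. Wars, which loads tryptophan onto its tRNA, followed the order of Ido1, with 53.4 and 48.2 RPKM in caput, then 124 and 114 in corpus, then 195 and 222 in cauda. Ido2, the paralog that lies next to Ido1 in gene order, was at 0.461 and 0.429 RPKM in caput, then 2.75 and 2.6 in corpus, then 3.35 and 2.8 in cauda. Its log2 fold change was 2.85 ± 0.17 over caput and 0.21 ± 0.15 over corpus (adjusted p = 0.3332), so the step from corpus to cauda seen for Ido1 was not called for Ido2. Ccbl2, a kynurenine aminotransferase, rose 1.33 ± 0.17 over caput and 1.61 ± 0.18 over corpus. Cyp1a1, a target of the receptor that kynurenines can bind, fell by 5.82 ± 0.17 against caput, from 56.2 and 54 RPKM to 0.701 and 1.15.

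Interferon gamma is the best known inducer of Ido1. Genes of its signalling and its targets were called lower in cauda than caput for 13 of 21 and higher for 1 (median -0.9), or 18 and 0 under library totals. Against corpus 7 were higher and 4 lower (median -0.16), or 7 and 7 under library totals. The receptor genes Ifngr1 and Ifngr2 fell by 0.9 ± 0.08 and 1.96 ± 0.1 from caput to cauda, and the signalling kinase gene Jak2 rose 0.76 ± 0.08, to 18.9 and 18.9 RPKM. Jak2 was the member called higher. Irf1, the transcription factor that interferon induces, was at 14.5 and 13.2 RPKM in caput, then 5.9 and 5.13 in corpus, then 11.8 and 10.1 in cauda. Psmb8, an interferon-induced proteasome subunit, was at 13 and 12 RPKM in caput, then 2.55 and 2.7 in corpus, then 8.8 and 7.76 in cauda. Gbp8 fell by 6.19 ± 0.29 against caput, from 13.5 and 9.34 RPKM to 0.113 and 0.181. Irf1 and Psmb8 were lowest in corpus. The part of interferon gamma in the Ido1 level was not tested.

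The list of cornified envelope genes, relatives and partners of Lce6a, held 8 genes at a testable level. The 8 include Smcp, the sperm mitochondrial sheath gene next to Lce6a, which was not called (adjusted p = 0.6191 against caput and 0.7767 against corpus). Against caput 2 were called higher in cauda and 3 lower (median -0.46), or 2 and 5 under library totals. Against corpus 2 were higher and 2 lower (median 0.15). Lor, loricrin of the skin barrier, was at 11.2 and 12.5 RPKM in cauda against 0.619 and 0.942 in caput and 2.9 and 2.45 in corpus. Tgm1, a transglutaminase that cross-links envelope proteins, was at 2.09 and 2.75 RPKM in cauda against at most 0.122 elsewhere, up 5.15 ± 0.63 over caput. Its relative Tgm3 moved the other way, at 4.08 and 4.56 RPKM in caput against 0.15 and 0.305 in cauda, and Evpl fell by 3.3 ± 0.35.

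Striated muscle and costamere genes, the partners of Smpx, were called higher in cauda than caput for 5 of 25 and lower for 11 (median -0.42), or 4 and 14 under library totals. Against corpus 7 were higher and 5 lower (median -0.13). Mb, myoglobin, was at 3.8 and 4.36 RPKM in caput, then 23.4 and 19.1 in corpus, then 71.3 and 58.3 in cauda. Neb, nebulin, rose 2.78 ± 0.32 over caput but stood at 0.507 and 0.3 RPKM in cauda. Dystrophin and beta-sarcoglycan, which anchor costameres, fell: Dmd by 2.45 ± 0.17 and Sgcb by 2.54 ± 0.13 against caput. Cryab, a small heat shock protein of muscle, was at 27.6 and 30.9 RPKM in cauda, 1.42 ± 0.15 above corpus, and did not pass against caput at -0.11 ± 0.14 (adjusted p = 0.5001). Of the list's 48 rows in the table, 25 were tested and 7 were at 0 in every library, among them the muscle fibre genes Myl3, Myh4 and Csrp3. The summed RPKM of 10 smooth muscle markers was 33.2 and 55 in cauda against 27.4 and 96.1 in caput. Gene by gene, 4 of 9 tested smooth muscle markers were called higher and 2 lower in cauda than caput (median log2 fold change 1.36). Their part in the Smpx level was not tested.

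**Figure D4:**
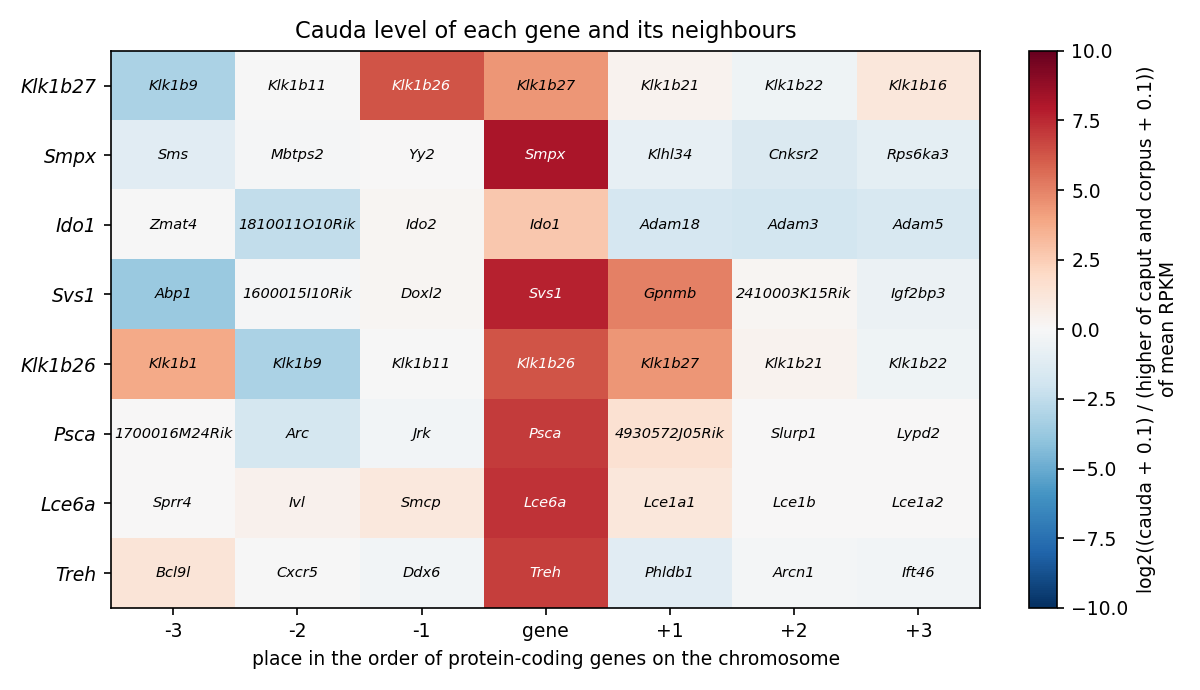
Log2 ratio of cauda mean RPKM to the higher of the caput and corpus means (0.1 added to both) for each gene and its 3 protein-coding neighbours on each side in GRCm38 gene order. The column of the 8 genes is red throughout, and Gpnmb beside Svs1 and Klk1b1 near Klk1b26 are the reddest of the other genes.

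Chromosome neighbours gave a local comparison, using gene order in GRCm38 only. Of 42 neighbours that are not among the 8 genes, 24 were tested, and 6 were called higher and 7 lower in cauda than caput. Against corpus 6 were higher and 4 lower, and 4 were higher in both: Gpnmb, Klk1b1, Bcl9l and 4930572J05Rik. Gpnmb, a membrane glycoprotein of pigment cells and macrophages, lies next to Svs1 and was at 234 and 136 RPKM in cauda against 3.78 to 5.76 elsewhere. Its log2 fold change was 5.14 ± 0.32 against caput (adjusted p = 9.859e-05) and 5.58 ± 0.33 against corpus (adjusted p = 0.0002672), and Svs1's neighbours on the other side, Doxl2 and 1600015I10Rik, were at 0.0253 RPKM or less. On one side of Psca, 4930572J05Rik was at 1.12 and 0.83 RPKM in cauda against 0.234 to 0.298 elsewhere, up 2.0 ± 0.5 over caput (adjusted p = 0.006002) and 1.77 ± 0.52 over corpus (adjusted p = 0.02605). Those calls were lost under library totals (1.15, adjusted p = 0.06027) and without cauda library 1 (1.77, adjusted p = 0.08386) against caput, and with DESeq2 (1.78, adjusted p = 0.08628) or without any of the 4 libraries compared (adjusted p 0.09684 to 0.2061) against corpus. Beyond it, the family members Slurp1 and Lypd2 had 0 reads in all 6 libraries. Around Lce6a, Lce1b, Lce1a2 and Sprr4 were at 0 in all 6 libraries, and Lce1a1 reached 0.162 and 0.076 RPKM in cauda. Smpx lay between Yy2 at 0 and Klhl34 at no more than 0.155 RPKM. Beside Treh, Ddx6 was at 4.77 and 5.08 RPKM in cauda against 4.83 to 6.07 elsewhere, and 2 genes further Bcl9l was at 7.53 and 7.28 against 1.7 to 3.66, up 1.98 ± 0.2 over caput and 1.29 ± 0.2 over corpus. Klk1b26 and Klk1b27 are each other's neighbours.

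The genes with the pattern most like each of the 8 were ranked by the root mean square difference of log2 CPM, centred per gene, over the 6 libraries, a description that shares libraries and depth. For Ido1 the nearest were Tmem54 (0.122) and Kazald1 (0.13). For Klk1b26 they were Anxa9 (0.219), Myh13 (0.225) and Tspan8 (0.25), and for Klk1b27 they were Sntg1 (0.28), Mmp7 (0.353) and Ass1 (0.356). The other genes had no match as near. Slc7a15, a gene of the amino acid carrier family at 140 and 132 RPKM in cauda and 0.209 to 0.668 elsewhere, was nearest to Treh (0.549), Svs1 (0.617) and Lce6a (0.437).

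For Smpx the nearest were Krt32 (0.641), a hair keratin, Crygc (0.662), a lens crystallin, and S100a8 (0.715). For Psca they were Crygc (0.671), Myh13 (0.751) and Gata2 (0.763). Gata2, a GATA transcription factor, was at 44 and 39.5 RPKM in cauda against 0.155 to 0.403 elsewhere and was also among the nearest to Svs1 (1.116). The remaining matches were Serpine2 (0.663) and Sptlc3 (0.862) for Treh, Igsf11 (1.149) for Svs1, and Cited1 (0.773) and Krt32 (0.778) for Lce6a. Among the 8, Svs1 and Treh were the closest pair (0.57) and Ido1 and Smpx the farthest (2.809).

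**Figure D5:**
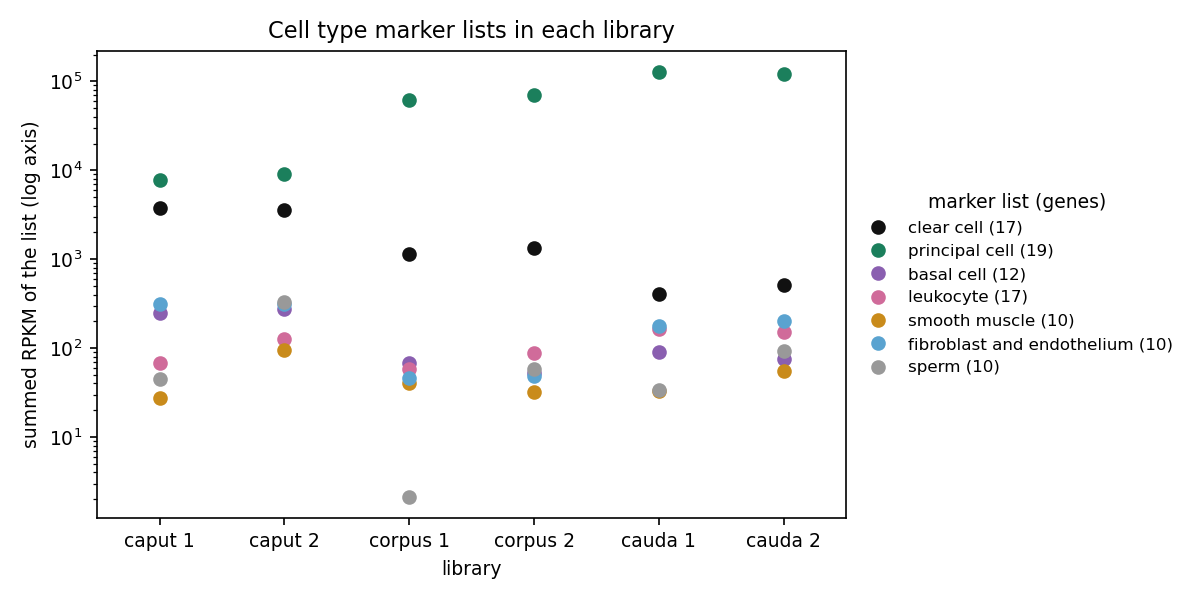
Summed RPKM (log axis) of 7 cell type marker lists in each library, with the number of genes per list. The clear cell sum falls from 3761 in caput library 1 to 406 in cauda library 1, the principal cell sum rises from 7858 to 127600, and the other lists reach at most 333 in any library.

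Markers of other cells are set beside these levels. The 8 genes were high where the summed clear cell markers were lowest and the sum of principal cell markers was highest, although 10 of 19 principal cell markers were called lower in cauda than caput. The part of either cell type was not tested. Of the 14 clear cell markers that could be tested, 14 were called lower in cauda than caput. Basal cell markers summed to 251 and 273 RPKM in caput against 90.4 and 75.1 in cauda. Leukocyte markers summed to 165 and 152 in cauda against 58.1 to 126 elsewhere, and S100a8, a calcium-binding protein of neutrophils, made up 131 and 75.2 of the cauda sums. Itgam, another marker of the list, was at 2.08 and 1.83 RPKM in cauda against 0.101 to 0.201 elsewhere. Of 11 tested leukocyte markers, 3 were called higher and 2 lower in cauda than caput (median log2 fold change -0.57). Against corpus 2 were higher and 0 lower (median -0.83). The defining leukocyte gene Ptprc was at 0.0883 and 0.256 RPKM in cauda, below each caput and corpus library except corpus library 1 at 0.248, which lay between them. Nkg7 was at 0 in every library. Fibroblast and endothelial markers summed to 177 and 201 in cauda, below caput at 310 and 313 and above corpus at 46.2 and 48.3. Most of each sum was Dcn, whose cauda values were 168 and 192 RPKM, against caput values of 307 and 308. Of 9 tested markers of this list, 4 were called higher and 2 lower in cauda than caput (median log2 fold change 0.18). Against corpus 3 were higher and 1 lower (median 1.73). Cdh5 was at 0 in 5 of 6 libraries.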

How the data were processed

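RNA of sorted clear cells was measured in 6 libraries, 2 per region, made with a PicoRNA kit and the SMARTer v4 kit and read on a HiSeq2500 instrument, per the labels' protocols. Deposited by the authors were whole-number read counts per gene, 1 file a library, and 1 table of RPKM values with a gene length column (unit other). The submitters' processing notes name STAR, HTSeq, edgeR and the build mm9. Which versions and annotation they used is not given in the sources used here, and the names of the deposited files say that strand was ignored. In the deposited RPKM table each value equals the gene's count over its length and a scaled library size. Lines for reads in no feature (6.67% to 9.48%), several features (1.39% to 1.83%) or more than 1 position (33.11% to 38.59%) were left out.

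Counts were tested in edgeR 4.0.16 under R 4.3.3, after filterByExpr by region and TMM scaling, with a robust quasi-likelihood fit on all 6 libraries with 3 residual degrees of freedom, two-sided F tests, and Benjamini-Hochberg adjustment over 15816 genes. A gene was called at an adjusted p under 0.05. SE is the absolute log2 fold change over the root of F, an approximation. Replicates differed by more than sampling noise (chi-square per degree of freedom 17.18 in caput, 9.57 in corpus and 12.17 in cauda). Read ratios use TMM-scaled libraries, the floor is 3 reads over a group, and intervals are 95% exact intervals for counting error only. Sequences came from GENCODE M21 and RefSeq, both GRCm38, so no coordinates of the mm9 files are given.

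The 8 genes, the gene lists and the tests were chosen with earlier results of these data known. The genes named were the 8, up to 3 called genes per list and comparison with cauda with the smallest adjusted p, the 3 nearest patterns per gene (predicted genes passed over), the chromosome neighbours and defining markers. Some genes that this rule took are left out of the text. Muscle fibre genes at 0, Klk1b16 and Klk1b24, and the neighbours singled out were chosen after their values were seen. Alternatives were RLE size factors, library totals, no low-count filter, DESeq2 1.42.0, only the libraries compared, a replicate block and leaving out each library. Libraries that share a replicate number deviated together to a small degree (correlations 0.187 for caput and corpus, 0.162 for caput and cauda and 0.134 for corpus and cauda), and the labels do not say what a number shares. Steps were tested on simulated counts.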

Additional observations from a re-analysis of the deposited data

How the results depend on the processing

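The counts of all genes called stayed within 1.5 times of the values above in 36 of 36 alternatives, and the 8 genes were higher in cauda in all 175 alternative fold changes with cauda that could be computed. The choice of the 8 genes by their cauda values set that direction in advance, so it lends no support to it. Between corpus and caput 5 of 78 alternatives turned the sign, for Treh, Svs1 and Klk1b26, with none called (smallest adjusted p = 0.3177). Library totals lowered the median of all genes to -0.9 (cauda against caput), -0.27 (cauda against corpus) and -0.63 (corpus against caput), splitting the calls into 2564 higher and 9501 lower, 1735 and 5154, and 2972 and 8438, against 5218 and 5363, 2850 and 2742, and 5029 and 5246 with TMM. Under them the log2 fold change against caput was 7.66 for Smpx, 7.64 for Svs1, 7.38 for Psca and 7.23 for Treh. It was 5.79 for Klk1b26, 3.65 for Klk1b27 and 2.89 for Ido1. The one relative that reversed was Klk1b11, from 0.06 to -0.8 (adjusted p = 0.04978). Fitting the replicate number as a replicate block called 10850, 6090 and 10633 genes against 10581, 5592 and 10275. Among the 8 genes the block changed the call of Klk1b27 between corpus and caput, to -0.83 (adjusted p = 0.03752). List counts moved by over 1.5 times in 9 of 288 cases: cornified envelope genes against caput, 8 against 5 with no low-count filter; Ly6/uPAR genes against corpus, 8 against 13 without corpus library 1; kallikreins against corpus, 3 against 5 with DESeq2 and without corpus library 1, corpus library 2 or cauda library 1; and sugar genes against corpus, 6, 6 and 5 against 10 without corpus library 1, corpus library 2 or cauda library 2. Where a region had up to 3 reads no fold was computed, which covers Lce6a against caput, Treh and Svs1 without caput library 2, Psca without caput library 1, and Treh and Lce6a without corpus library 2. Depth limits Smpx, Treh, Lce6a, Psca, Svs1 and Klk1b26 outside the cauda, where single libraries hold 0 to 39 reads.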
